A study of Mus musculus with 6 samples.

Results

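The genes described here encode complex III, complex IV and ATP synthase, the machinery that carries electrons to oxygen in the inner mitochondrial membrane and uses the resulting proton gradient to make ATP. They were taken by name: every listed gene beginning with Uqcr, Atp5, mt-Co, mt-Cyt or mt-Atp, or with Cox followed by a digit from 4 to 8, with 1 pseudogene name dropped. The rule found 46 of the 26771 genes listed in the deposited tables, 40 in the nucleus and 6 in the mitochondrial genome. Complex III had 8 nuclear and 1 mitochondrial gene, complex IV 15 and 3, and ATP synthase 17 and 2. A gene without a row in a library was counted as 0, and 43 of the 46 had a row in all 6 libraries. The naming rule also caught 3 genes that are not core subunits. Cox7a2l is known as a factor for supercomplexes of complexes III and IV, and its role in these C57BL/6 mice was not examined. Atp5sl is an assembly factor of complex I, and Atp5s is a factor B-like protein.

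The libraries were made from spleen γδT17 cells, T cells with a γδ receptor that make interleukin-17. All 3 mice, A, B and C, were C57BL/6 TCRβ-/-, so they lack αβ T cells in both groups. Each mouse gave an Initial library, from cells sorted out of the spleen before any culture, and an Induced library, from spleen cells grown for 8 days by a protocol built on IL-1β and IL-23 and then purified magnetically with a Pan T cell kit. The labels state that most purified Induced cells made IL-17A. The sources used here do not give the gate of the Initial sort or the sex and age of the mice. No group of cultured cells without the cytokines is among the 6 libraries, so culture, cytokines, cell division and purification method cannot be told apart in any Induced against Initial difference.

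Complex III passes electrons from ubiquinol to cytochrome c and pumps protons, complex IV (cytochrome c oxidase) passes them on to oxygen, and ATP synthase lets protons flow back through a rotating ring to drive ATP formation in its F1 head. The catalytic or proton-conducting cores of these complexes include subunits made inside the mitochondrion, which must be matched by nuclear-encoded subunits that are imported. Activated and dividing T cells are known to build up mitochondria alongside glycolysis, and IL-17-producing γδ T cells are known to rely on oxidative metabolism.

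Values are FPKM (fragments mapped to a gene, scaled for the length of its transcripts and the depth of the library), so levels can be set beside each other between genes. The 6 libraries summed to between 432626 and 458818 FPKM, and the spacing of low values gave a rough depth of 1.91e+07 to 2.32e+07 fragments per library. Summed T cell markers ranged from 1560 to 1696 FPKM in Initial and from 1378 to 1502 in Induced libraries. Initial libraries also held 390 to 680 FPKM of macrophage markers and 1217 to 1742 of red cell markers, and Induced libraries at most 0.82 and 1.64, with 6 of 6 markers of each list under 1 FPKM. B cell markers summed to 171 to 206 FPKM in Initial and 24.2 to 46.3 in Induced libraries. Markers of dividing cells went from between 20.6 and 26.3 to between 430 and 493. The part of these other cells in the differences described here was not tested, and in bulk RNA fewer cells of a type and less RNA per cell cannot be told apart.

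Each gene was tested with limma on log2(FPKM + 1), Induced against Initial, with p-values adjusted by Benjamini and Hochberg over the 11265 genes that reached 1 FPKM in at least 3 libraries. A gene "rose" or "fell" where the adjusted p was under 0.05. Of all genes tested, 70.4% were called, 37.3% as risen and 33.1% as fallen, and in 75.4% the 3 Induced libraries lay entirely above or below the 3 Initial ones. The fit did not use the pairing by mouse, and its p-values measure the spread between these libraries.

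Of the genes of these complexes, 29 of the 43 tested stood higher after culture in all 3 mice and 7 stood lower in all 3. Such agreement was not counted over all genes. It must hold at least for the 75.4% of them without overlap, so it does not set these genes apart. Of the 43 tested, 22 rose (51.2%, beside 37.3% of all genes tested), 6 fell (14.0%, beside 33.1%) and 15 did not pass. The median log2 fold change was 0.26 beside 0.03 over all genes tested. In 23 of the 43 the Induced libraries lay entirely above the Initial ones and in 7 entirely below. The shares called either way (65.1%) and without overlap (69.8%) were thus no higher than the 70.4% and 75.4% of all genes. Of the 37 nuclear genes tested 21 rose and 4 fell, and of the 6 mitochondrial genes 1 rose and 2 fell. Complex IV and ATP synthase had 8 of 12 and 10 of 17 nuclear genes that rose, and complex III had 3 of 8. Differences between complexes and between the genomes were not tested, and they are given as counts. Leaving out the 3 names that are not core subunits gave 8 risen and 0 fallen of 11 in complex IV, and 10 risen and 1 fallen of 15 in ATP synthase.

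**Figure D1:**
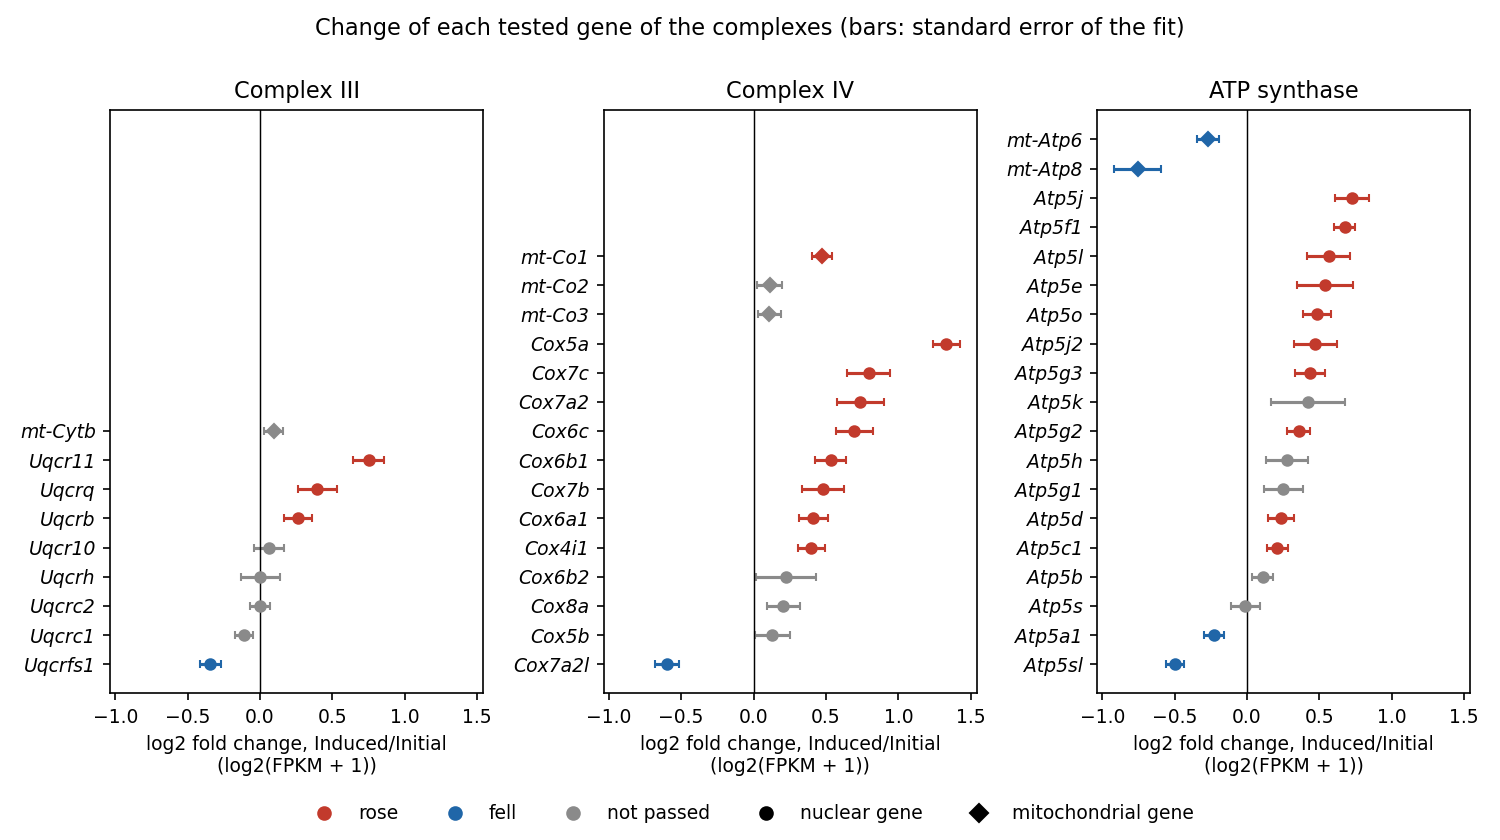
Log2 fold change of Induced over Initial on the log2(FPKM + 1) scale for each of the 43 tested genes, with the standard error of the limma fit as bars; circles are nuclear and diamonds mitochondrial genes, coloured by call. Cox5a has the highest value, 1.33, and mt-Atp8 the lowest, -0.76; 22 genes rose and 6 fell.

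Cytochrome b, the heme protein that holds the ubiquinol sites of complex III, is encoded by mt-Cytb (MT:14145-15288, plus strand, GRCm38 as are all positions given). It was listed at 662, 666 and 701 FPKM before culture in mice A, B and C and at 704, 706 and 757 after it, an order of mice kept in all values below. The Induced values all lay just above the Initial ones, but the log2 fold change of 0.09 ± 0.06 (SE) did not pass (adjusted p = 0.218), though it did with quantile normalization (0.18, adjusted p = 0.0206). The complex III ratio of mitochondrial to nuclear summed FPKM was 1.04 ± 0.05 in Initial and 1.10 ± 0.01 in Induced libraries (SD, n = 3 each), and the groups overlapped.

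Among the 8 nuclear genes of complex III, 3 small subunits rose and the Rieske protein fell. Uqcr11 (chr10:80402997-80406830, minus strand), a small subunit at the edge of the complex, was at 21.3, 18.8 and 25.1 FPKM in Initial and 39.9, 35.1 and 36.0 in Induced libraries. The groups were apart, and mean FPKM rose 1.70-fold (0.75 ± 0.11 on the log2 scale, adjusted p = 0.000437). Uqcrfs1 (chr13:30540308-30545362, minus strand), the Rieske iron-sulfur protein that hands electrons to cytochrome c1, fell from 128, 116 and 124 to 92.4, 93.7 and 103 FPKM (log2 fold change -0.34 ± 0.07, adjusted p = 0.00308). Scaling to the CD3 chains and Trdc, T cell receptor genes, took this call away (-0.18, adjusted p = 0.108).

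Uqcrq, a small subunit beside cytochrome b, was at 24.3, 24.7 and 34.9 FPKM in Initial and 36.7, 35.2 and 37.7 in Induced libraries, a rise of 0.40 ± 0.13 on the log2 scale (adjusted p = 0.0291). Uqcrb, a ubiquinone-binding subunit, went from 90.2, 77.0 and 98.7 to 104, 102 and 112 FPKM, a rise of 0.26 ± 0.10 (adjusted p = 0.038). Library C was the highest of its group for both. Each of these rises lost its call when any library other than Initial C was left out, with adjusted p up to 0.101 for Uqcrq and 0.095 for Uqcrb, and with no filter on low values (0.0706 and 0.0799).

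Uqcrc1 and Uqcrc2, which are called core proteins, did not pass. Uqcrc1, the most abundant nuclear gene of the complex, was at 196, 188 and 186 FPKM in Initial and 173, 169 and 185 in Induced libraries (log2 fold change -0.11 ± 0.06, adjusted p = 0.149). Uqcrc2, the second core protein, had means of 93.0 ± 4.57 and 92.9 ± 5.48 FPKM (SD, n = 3). Uqcr10 and the hinge protein gene Uqcrh had log2 fold changes of 0.06 and 0.00. With the length trend removed, Uqcr10 passed as risen (0.26, adjusted p = 0.022) and Uqcrc2 as fallen (-0.15, adjusted p = 0.040). Summed over the 8 nuclear genes of the naming rule, complex III stood at 654 ± 45.2 FPKM in Initial and 656 ± 28.8 in Induced libraries. Cyc1, which encodes the subunit cytochrome c1, falls outside the rule and is not in this sum. It rose from 85.4, 87.8 and 97.9 to 109, 104 and 113 FPKM (0.27 ± 0.07, adjusted p = 0.011), with no overlap. The levels of the 8 genes were closer together after culture: the SD of their log2 FPKM was 0.98 to 1.14 in Initial and 0.79 to 0.86 in Induced libraries, without overlap. The other complexes did not show this over their tested nuclear genes. The SD was 2.02 to 2.24 and then 1.95 to 2.35 in complex IV. In ATP synthase it was 1.90 to 2.05 and then 1.97 to 1.99, and the groups overlapped in both complexes.

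Complex IV held the largest rise and the largest fall of the nuclear genes. Cox5a (chr9:57521274-57532426, plus strand), a matrix-side subunit, was at 89.2, 80.6 and 104 FPKM in the Initial libraries. In the Induced libraries it stood at 229, 231 and 229. The groups were far apart and the Induced values nearly equal, a 2.52-fold rise in mean FPKM (log2 fold change 1.33 ± 0.09, adjusted p = 7.2e-06). Cox5b, the zinc-binding matrix subunit, was at 52.7 ± 9.74 and 57.2 ± 3.04 FPKM and did not pass (log2 fold change 0.13, adjusted p = 0.367), but it passed without Initial C (0.27, adjusted p = 0.0152) and with scaling to the CD3 chains and Trdc (0.30, adjusted p = 0.0355).

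Cox7a2l (chr17:83501918-83517330, minus strand), known as a supercomplex factor, was at 175, 154 and 185 FPKM in Initial and 107, 113 and 118 in Induced libraries. All 3 mice were lower after culture, by -0.60 ± 0.08 on the log2 scale (adjusted p = 0.0003). Its close relative Cox7a2, the subunit found in most tissues, went the other way, from 43.2, 38.9 and 63.5 to 80.7, 78.3 and 80.4 FPKM (0.74 ± 0.16, adjusted p = 0.00465). The FPKM ratio of Cox7a2l to Cox7a2 was 4.06, 3.97 and 2.91 in Initial and 1.33, 1.45 and 1.46 in Induced libraries. The groups could not overlap in this ratio, as each gene already lay apart, in opposite directions.

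Several small subunits around the complex IV core rose together by count. Cox7c, a membrane subunit, went from 37.2, 37.3 and 54.4 to 68.1, 78.4 and 76.3 FPKM (0.79 ± 0.15, adjusted p = 0.00189). Cox6b1, which bridges the monomers on the intermembrane side, went from 76.8, 67.4 and 91.4 to 119, 110 and 111 FPKM (0.53 ± 0.11, adjusted p = 0.00262). Cox6c rose from a mean of 77.1 ± 15.5 to 124 ± 3.65 FPKM. None of these genes had overlapping groups, and Initial C was the highest Initial library for all of them.

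Cox7b, another membrane subunit, was at 26.2, 26.8 and 37.9 FPKM in Initial and 40.6, 39.0 and 47.1 in Induced libraries (0.48 ± 0.15, adjusted p = 0.019). Its call was lost without Initial A, Initial B or Induced C, at adjusted p of 0.0688, 0.069 and 0.0516. Cox8a, the ubiquitous form of the smallest subunit, was at 136, 114 and 157 FPKM in Initial and 154, 146 and 165 in Induced libraries, which overlap. It did not pass (0.21 ± 0.12, adjusted p = 0.146), and it passed with the mouse as a replicate block (adjusted p = 0.0462) and without Initial C (0.32, adjusted p = 0.0244). It also passed with scaling to the CD3 chains and Trdc (0.37, adjusted p = 0.00957) and with the length trend removed (0.23, adjusted p = 0.0294).

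The isoforms of complex IV were those of most body tissues. Cox4i1, the form of subunit 4 in most tissues, was at 184, 177 and 223 FPKM in Initial and 246, 263 and 258 in Induced libraries (0.40 ± 0.09, adjusted p = 0.00579). Cox4i2, its lung form, was at most 0.344 FPKM and was not tested. Cox6a1, the non-muscle form of subunit 6a, was at 154, 128 and 169 and then 190, 208 and 200 FPKM (0.41 ± 0.10, adjusted p = 0.00739).

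Cox6a2, the heart and muscle form, was at 0.375, 0.281 and 0.264 FPKM in Initial libraries and at 0 in all 3 Induced ones. It lies opposite Itgad, an integrin gene of the other strand, which was at 33.0, 31.6 and 25.0 FPKM in Initial and at most 0.123 in Induced libraries. Reads of the overlap cannot be told apart without strand, and whether the authors counted by strand is not known from the sources used here. The same limit touches Atp5a1, Atp5f1 and Cox4i1, which overlap Haus1, Wdr77 and Emc8 on the other strand. Those partners were at most 14.0, 11.5 and 12.1 FPKM in Initial and at most 28.3, 20.8 and 21.7 in Induced libraries, far below the 3 genes. Atp5j overlaps Gabpa (12.9 to 14.7 FPKM over the 6 libraries), Cox6c Vps13b (2.69 to 4.90), and Uqcrb, Atp5d and Cox5a overlap partners at no more than 1.12 FPKM. Cox7a1, the muscle form of subunit 7a, was at 0.221, 0 and 0 and then 0.704, 1.38 and 0.328 FPKM. Cox6b2, the testis form, was between 0.556 and 1.56 FPKM and did not pass (adjusted p = 0.352), except with quantile normalization (0.61, adjusted p = 0.0203). No gene was listed under the name Cox7b2, Cox8b or Cox8c in any library, so these were not analysed.

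**Figure D2:**
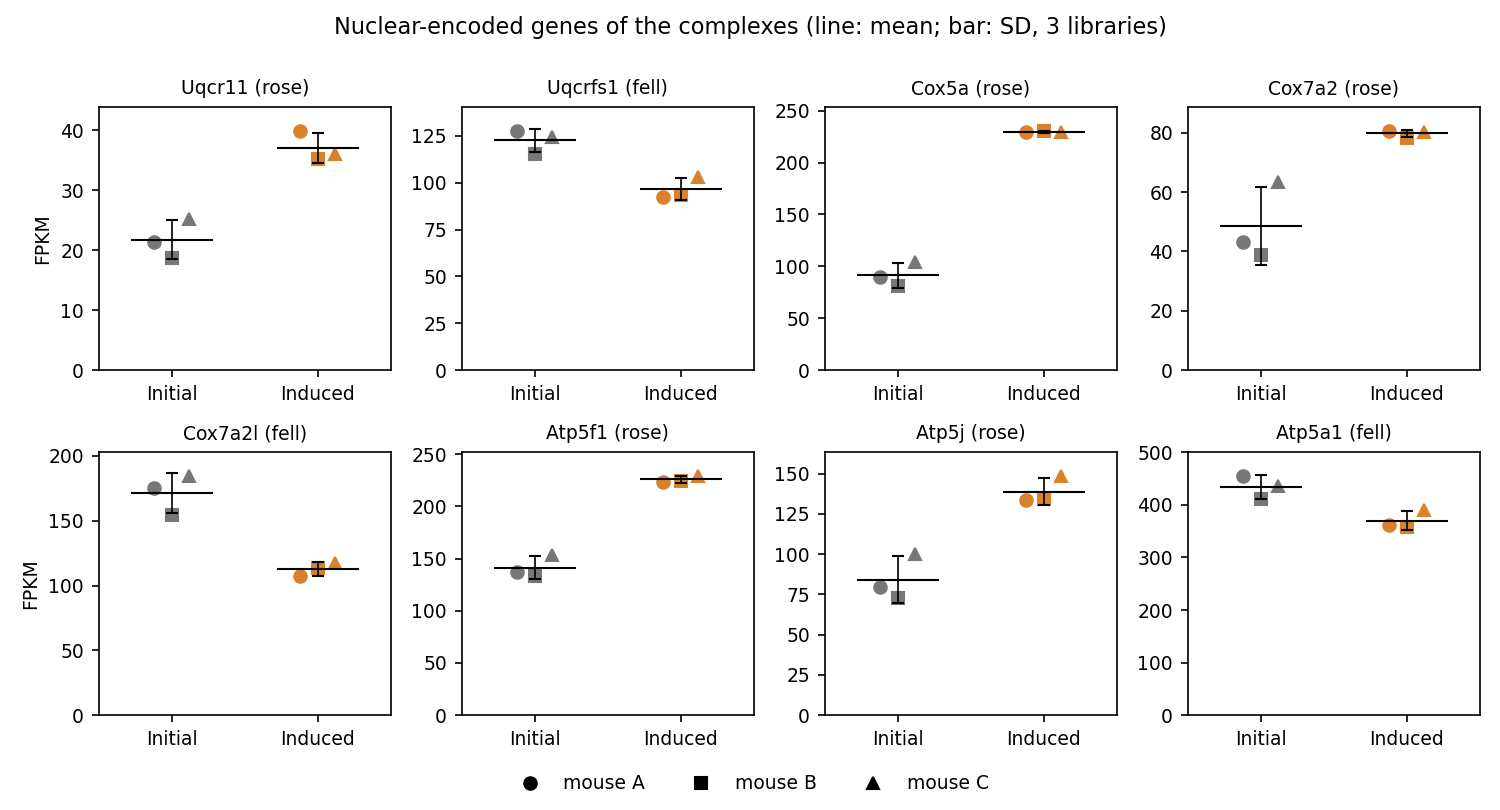
FPKM in each library for 8 nuclear genes, with mice A, B and C as circle, square and triangle, the group mean as a line and its SD as a bar (n = 3). Cox5a goes from between 80.6 and 104 to between 229 and 231, Cox7a2l goes from between 154 and 185 to between 107 and 118, and in none of the 8 panels do the groups overlap.

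The 3 mitochondrial genes of complex IV encode its catalytic core. mt-Co1 (MT:5328-6872, plus strand), which holds the oxygen-reducing heme and copper site, was at 705, 774 and 787 FPKM in Initial and 1046, 1059 and 1037 in Induced libraries. It was the only mitochondrial gene of the 6 that rose (1.39-fold in mean FPKM, log2 fold change 0.47 ± 0.07, adjusted p = 0.000368), with no overlap. mt-Co2 (MT:7013-7696), which takes electrons from cytochrome c, was at 336, 315 and 379 and then 362, 355 and 392 FPKM, which overlap (0.11 ± 0.08, adjusted p = 0.272). mt-Co3 (MT:8607-9390) was at 404, 391 and 462 and then 441, 437 and 474 FPKM, which also overlap (0.11 ± 0.08, adjusted p = 0.257). With scaling to the CD3 chains and Trdc, mt-Co2, mt-Co3 and mt-Cytb passed as risen (0.28, 0.28 and 0.26), each with an adjusted p of at most 0.0154.

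ATP synthase was the complex whose 2 mitochondrial genes both fell. mt-Atp6 (MT:7927-8607) encodes the subunit that forms the proton path beside the rotating ring, and was the gene with the highest mean FPKM of the 46 in Initial libraries. It went from 1222, 1152 and 1292 to 1008, 956 and 1079 FPKM (-0.27 ± 0.08, adjusted p = 0.0131). The groups did not overlap, but the call was lost without Induced A or Induced B (adjusted p of 0.0543 and 0.0652), with quantile normalization (-0.16, adjusted p = 0.0831) and with scaling to the CD3 chains and Trdc (-0.10, adjusted p = 0.297).

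mt-Atp8 (MT:7766-7969), which encodes a short membrane subunit, was at 67.7, 60.9 and 89.0 FPKM in Initial and 35.2, 48.0 and 43.9 in Induced libraries. It fell by 0.76 ± 0.16 on the log2 scale (adjusted p = 0.00376) with no overlap. This transcript region is 204 bases long, the shortest of the 46, and removing a trend of fold change with transcript length moved the value to 0.05 (adjusted p = 0.8). mt-Atp8, mt-Atp6 and mt-Co3 overlap or abut and share 1 locus entry in the deposited tables, so their split rests on how reads of the shared transcript were assigned.

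**Figure D3:**
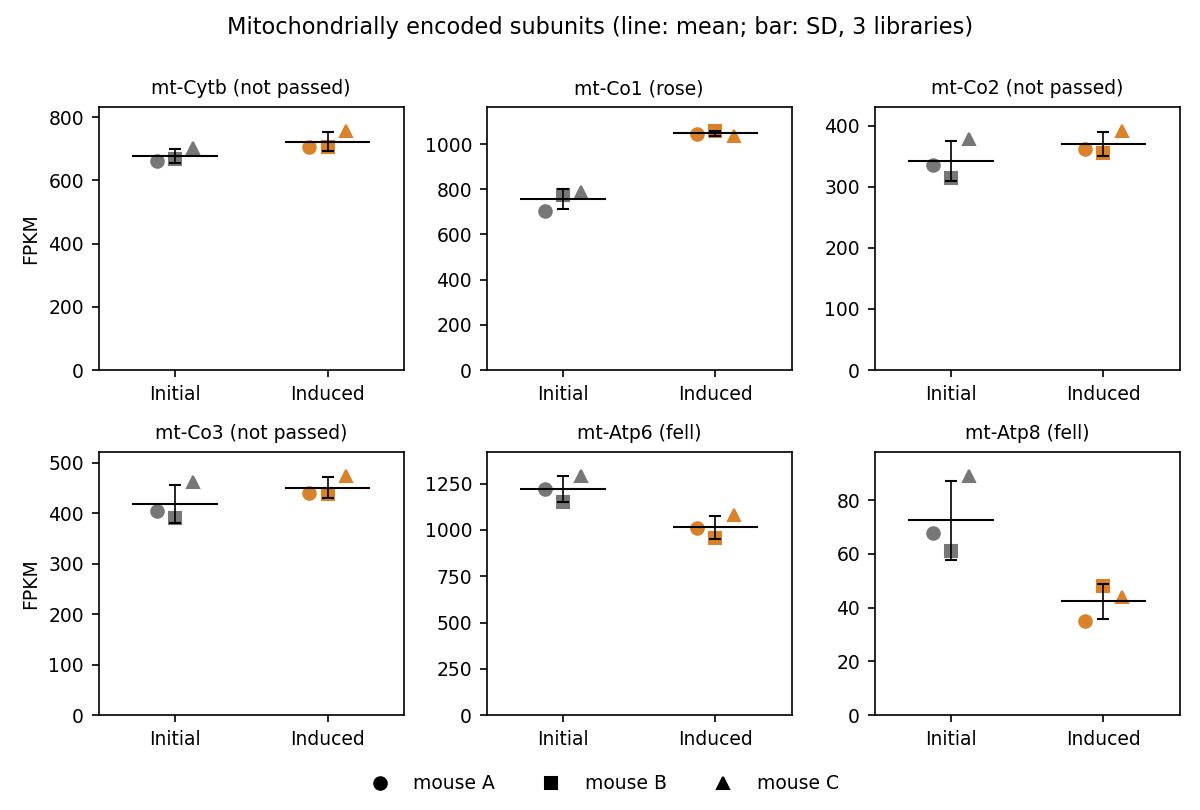
FPKM in each library for the 6 mitochondrial genes, with mice A, B and C as circle, square and triangle, the group mean as a line and its SD as a bar (n = 3). mt-Co1 lies between 705 and 787 before and between 1037 and 1059 after culture, while mt-Atp6 and mt-Atp8 lie lower after culture in every library.

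Nuclear copies of mitochondrial sequence on chromosome 1 bear on these levels. Gm10925 was 100% identical to mt-Atp6 over 99.6% of its length and was listed at 97.5% to 98.1% of its FPKM in every library. Gm28661 and Gm28437, identical copies of mt-Co2 and mt-Co3, were listed at 94.1% to 95.2% and 96.8% to 98.4% of theirs. Gm29216 matched 31.3% of mt-Co1 and was listed at 24.7% to 38.0% of it. Gm10925 also matched 21.1% of mt-Atp8. Reads of such copies cannot be assigned to 1 origin, so the levels of these 5 genes are uncertain. With the copies summed into their genes the log2 fold change was 0.38 for mt-Co1 (adjusted p = 0.0016) and -0.27 for mt-Atp6 (adjusted p = 0.014). FPKM were added directly. Gm29216 matches only a part of mt-Co1, so it weighs more in the summed mt-Co1 value than its length warrants.

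The nuclear genes of ATP synthase can be read along the structure. In the F1 head, Atp5b, the catalytic beta subunit, had the highest mean FPKM of the nuclear genes. It was at 740, 657 and 737 FPKM in Initial and 740, 751 and 805 in Induced libraries and did not pass (0.11 ± 0.07, adjusted p = 0.224), but it passed with scaling to the CD3 chains and Trdc (0.28, adjusted p = 0.0137) and with quantile normalization (0.19, adjusted p = 0.0138). Its partner Atp5a1, the alpha subunit, fell from 455, 411 and 435 to 361, 358 and 390 FPKM (-0.23 ± 0.07, adjusted p = 0.0182), with no overlap. The FPKM ratio of Atp5a1 to Atp5b was 0.62, 0.62 and 0.59 in Initial and 0.49, 0.48 and 0.48 in Induced libraries. The Atp5a1 call was lost with scaling to the CD3 chains and Trdc (-0.06, adjusted p = 0.543) and without Initial A, Induced A or Induced B (adjusted p of 0.0703, 0.0802 and 0.0763).

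The 3 subunits of the central stalk all rose: Atp5c1 (gamma) by 0.21 and Atp5d (delta) by 0.23 on the log2 scale, with means of 204 and 236, and of 130 and 152 FPKM. Atp5e (epsilon) rose by 0.54 ± 0.20 (adjusted p = 0.041), although its groups overlapped. All 3 calls were lost in some of the fits that left out 1 library, and those of Atp5c1 and Atp5d with the length trend removed (0.05 and 0.08). Summed over the 5 genes, the F1 head stood at 1514 ± 94.9 FPKM in Initial and 1574 ± 68.7 in Induced libraries, which overlap.

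The outer stalk, which keeps the head from turning with the rotor, had 3 of 4 genes that rose, beside 37.3% of all genes tested. The other parts were near this by count, with 3 of 5 in the F1 head and 2 of 3 in both the c ring and the membrane part. Atp5f1 (chr3:105942698-105960099, minus strand), subunit b, went from 137, 133 and 153 to 224, 224 and 229 FPKM (0.67 ± 0.07, adjusted p = 6.7e-05). Atp5j (chr16:84827866-84835625, minus strand), coupling factor 6, went from 79.6, 72.5 and 100 to 133, 134 and 149 FPKM (0.73 ± 0.12, adjusted p = 0.00086). The groups did not overlap for either gene. Atp5o, the subunit that attaches the stalk to the head, rose by 0.48 ± 0.10 (adjusted p = 0.0023), from a mean of 111 to 155 FPKM. Atp5h (subunit d) was at 149 ± 28.2 and 179 ± 23.3 FPKM and did not pass, with an overlap, and it passed with the mouse as a replicate block (adjusted p = 0.00901), with scaling to the CD3 chains and Trdc (0.44, adjusted p = 0.0168) and without Initial C (0.42, adjusted p = 0.0139). Summed, the 4 genes stood at 485 ± 65.2 and 699 ± 43.4 FPKM, and the 6 libraries did not overlap between groups.

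The rotating c ring is built from 1 protein encoded by 3 genes that differ in their import sequence. Atp5g3 rose from 166, 143 and 191 to 224, 217 and 230 FPKM (0.43 ± 0.10, adjusted p = 0.00603). Atp5g2 rose from 57.2, 53.6 and 62.2 to 70.7, 72.0 and 79.6 FPKM (0.36 ± 0.08, adjusted p = 0.00417). Atp5g1 was at 57.2, 45.8 and 61.7 and then 63.6, 57.4 and 75.3 FPKM, which overlap, and did not pass (0.25 ± 0.13, adjusted p = 0.129), while it passed with the mouse as a replicate block (adjusted p = 0.0153) and with scaling to the CD3 chains and Trdc (0.42, adjusted p = 0.0181). The mix of the 3 genes moved little: Atp5g3 made up 59.0% to 60.7% of their FPKM in Initial and 59.7% to 62.6% in Induced libraries.

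Atp5l, subunit g of the membrane part where dimers form, rose from 54.5, 52.9 and 79.3 to 88.3, 89.0 and 95.9 FPKM (0.57 ± 0.15, adjusted p = 0.0102). Atp5j2, subunit f, rose by 0.47 ± 0.15, but lost its call without Initial A, Initial B or Induced C (adjusted p of 0.0664, 0.0593 and 0.0547) and with no filter on low values (0.0525). Atp5k, subunit e, was at 6.37, 11.2 and 14.9 and then 13.7, 14.9 and 13.7 FPKM and did not pass, although it did without Initial C (0.67, adjusted p = 0.0266) and with the length trend removed (0.84, adjusted p = 0.0187). Of the names outside the enzyme, Atp5sl fell from 32.4, 32.9 and 34.5 to 23.1, 22.5 and 24.1 FPKM (-0.50 ± 0.06, adjusted p = 0.000207), and Atp5s was at means of 2.31 and 2.29 FPKM and did not pass.

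Summing the genes by genome shows the balance in each library. The 40 nuclear genes summed to 4132, 3752 and 4568 FPKM in Initial and 4816, 4798 and 5137 in Induced libraries. The 6 mitochondrial genes summed to 3396, 3359 and 3709 and then 3596, 3561 and 3783 FPKM. Only the nuclear sums were apart between the groups. The mitochondrial to nuclear ratio was 0.822, 0.895 and 0.812 in Initial and 0.747, 0.742 and 0.737 in Induced libraries, lower in every mouse and without overlap. The level of this ratio depends on how reads of the nuclear copies were split. With the copies added to the mitochondrial sum it was 1.34, 1.44 and 1.33 in Initial and 1.17, 1.15 and 1.16 in Induced libraries, again without overlap. That plain addition of FPKM gives the partial copy of mt-Co1 more weight than its length warrants. By complex, the ratio went from 0.535 ± 0.013 to 0.375 ± 0.005 (SD, n = 3) in ATP synthase without overlap. This had to be so, as its nuclear sums lay wholly higher and its mitochondrial sums wholly lower in Induced libraries. In complex IV the ratio went from 1.42 ± 0.14 to 1.29 ± 0.01 (SD, n = 3), where each Induced library lay just below the lowest Initial one. The libraries were made with an mRNA kit, so these ratios describe the RNA it captured and not DNA or protein.

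**Figure D4:**
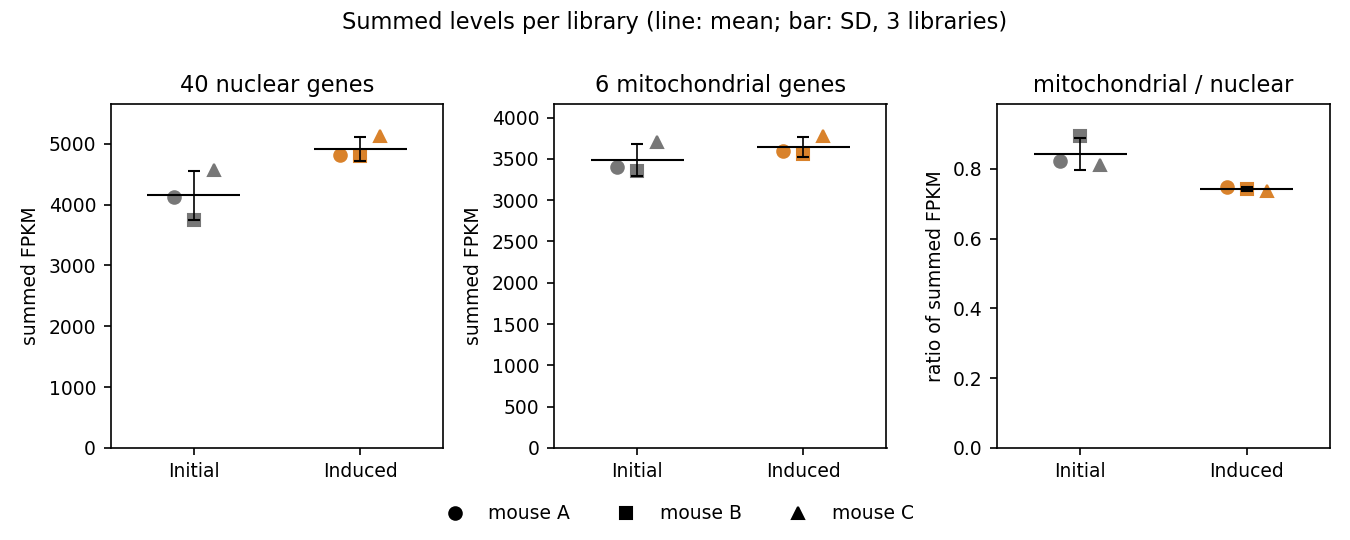
Summed FPKM of the 40 nuclear genes, of the 6 mitochondrial genes, and the ratio of both sums, for each library, with mice A, B and C as circle, square and triangle, the mean as a line and the SD as a bar (n = 3). The ratio is 0.812 to 0.895 in Initial and 0.737 to 0.747 in Induced libraries.

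Balance inside the mitochondrial genome also moved. The FPKM ratio of mt-Co1 to mt-Atp6 was 0.576, 0.672 and 0.609 in Initial and 1.04, 1.11 and 0.961 in Induced libraries. That of mt-Atp6 to mt-Co3, which share a locus entry, was 3.03, 2.94 and 2.80 and then 2.28, 2.18 and 2.27. Neither ratio overlapped between the groups. For mt-Co1 to mt-Atp6 this had to be so, as each gene already lay apart, in opposite directions. Both ratios rest on genes with nuclear copies. The 7 mt-Nd genes of complex I lie in the same mitochondrial genome. Of these, 1 rose (14.3%, beside 37.3% of all genes tested), 2 fell (28.6%, beside 33.1%) and 4 did not pass.

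Set beside other nuclear-encoded mitochondrial proteins, the counts were similar in direction. Of 36 tested nuclear subunits of complex I, which feeds electrons into the chain, 24 rose (66.7%, beside 37.3% of all genes tested) and 0 fell (beside 33.1%), with a median log2 fold change of 0.31 beside 0.36 for the 37 nuclear genes here. Of 78 mitochondrial ribosomal protein genes, which serve the translation of the mitochondrial subunits, 50 rose (64.1%) and 3 fell (3.85%), with a median of 0.38. The shares called either way, 66.7% and 67.9%, were no higher than the 70.4% of all genes. No difference from either group was tested.

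Genes that build or supply the complexes, with some subunits outside the naming rule, were taken from 5 lists. Their counts stand beside 37.3% of all genes tested that rose and 33.1% that fell. Of 8 genes of complex III and cytochrome c outside the naming rule, 4 rose (50%) and 3 fell (37.5%). Uqcc2, an assembly factor for cytochrome b, rose from 11.8 ± 2.22 to 19.9 ± 2.34 FPKM (0.72, adjusted p = 0.0021), and Uqcc3 from 16.9 ± 1.60 to 24.1 ± 0.83 (0.49). Ttc19, which helps clear fragments of the Rieske protein, fell from 8.12 ± 1.19 to 5.05 ± 0.77 FPKM (-0.59, adjusted p = 0.0051), and Lyrm7, the chaperone that delivers the Rieske protein, from 2.02 ± 0.17 to 1.26 ± 0.22 (-0.42). Bcs1l, which inserts the Rieske protein, rose from 3.64 ± 0.26 to 4.90 ± 0.32 FPKM (0.35, adjusted p = 0.014), and is named here after its value was seen.

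Of 25 tested subunit and assembly genes of complex IV outside the rule, 12 rose (48.0%) and 3 fell (12.0%). Cmc2, a small twin cysteine protein, rose from 8.30 ± 0.51 to 33.7 ± 1.87 FPKM (1.90, adjusted p = 4.6e-07), more than any gene of the 3 complexes. Coa4, another such protein, rose from 1.65, 2.18 and 2.15 to 7.48, 5.47 and 4.57 FPKM (1.17). Coa7 fell to 5.86 ± 0.59 from a mean of 14.4 FPKM (-1.17, adjusted p = 3.1e-05) and Cox16 from 28.6 ± 6.02 to 19.3 ± 1.48 (-0.52). Of 7 further genes of ATP synthase, for assembly, inhibition or small subunits, 4 rose (57.1%) and 0 fell. 2010107E04Rik, which GENCODE names Atp5mpl, and Usmg5 are small subunits whose listed names fall outside the rule. They are thus in no ATP synthase count or sum above. 2010107E04Rik rose from 29.1 ± 7.27 to 40.8 ± 0.49 FPKM (0.51, adjusted p = 0.022). Usmg5 was at 50.9 ± 12.2 and 43.0 ± 3.62 FPKM and did not pass. Atpif1, which blocks the enzyme from running in reverse, rose from 37.6 ± 1.66 to 101 ± 7.68 FPKM (1.40, adjusted p = 1.8e-06), and Tmem70, which helps build the c ring, from 18.5 ± 0.84 to 34.4 ± 0.42 (0.86).

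Of 18 genes that copy and transcribe mitochondrial DNA, 4 rose (22.2%) and 6 fell (33.3%, near the share of all genes). Polg2, the accessory subunit of the mitochondrial DNA polymerase, fell from 22.3 ± 1.80 to 5.42 ± 0.36 FPKM (-1.86, adjusted p = 1.0e-06), and the transcription factor Tfb2m from 20.7 ± 1.22 to 13.4 ± 1.56 (-0.60). Mgme1, a mitochondrial exonuclease, rose from 3.38 ± 0.27 to 7.38 ± 0.39 FPKM (0.94), and Mterf1a from 5.48 ± 0.93 to 10.7 ± 0.29 (0.87). Of 8 tested nuclear regulators of respiratory genes, 1 rose (12.5%) and 2 fell (25.0%). Pprc1, a coactivator of the PGC-1 family, rose from 9.30 ± 0.04 to 13.7 ± 1.68 FPKM (0.50), Ppargc1b, another, fell from 3.14 ± 0.27 to 1.33 ± 0.39 (-0.84), and Gabpb1, the partner subunit of the GABP factor, fell from 24.6 ± 1.61 to 19.3 ± 0.74 (-0.33).

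NRF1 and GABP, an ETS-family factor, are known activators of respiratory genes, as is YY1 for some, so the promoters were searched for their letters. RefSeq windows of 250 bases before to 50 after the start site (GRCm38.p6) were at hand for 32 of the 40 nuclear genes. GCGCANGCG, the NRF1 core, was found on either strand in 10 of the 32 genes, beside 7.03% of the 27025 genes with a window. CCGGAAG, the ETS core, was found in 10 of 32 beside 9.93%, and AAGATGG, the YY1 core, in 5 of 32 beside 7.28%. At least 1 of the 3 was in 19 of 32 (59.4%) beside 21.4% of all genes. Matches to different strings were allowed to overlap, and a match describes letters, not a shown binding site.

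The windows of 5 genes that rose or fell most clearly or carry matches are printed from the RefSeq table, 5′ to 3′ on the gene's strand, without bases annotated as UTR beyond a few, and with the matched letters in capitals. Uqcr11, Atp5j and Cox6a1 rose and hold matches. Cox5a, with the largest rise, and Cox7a2l, with the largest fall of a nuclear gene, hold none in their windows. The Cox7a2l window lies inside the gene span given above, and the bases before the 5′ end of that span were not searched. The stretches are chr10:80406831-80406971 (minus strand) for Uqcr11, chr16:84835024-84835123 (minus) for the second of 2 Atp5j windows, chr5:115348982-115349108 (minus) for Cox6a1, chr9:57521082-57521241 (plus) for Cox5a and chr17:83514331-83514483 (minus) for Cox7a2l.
Uqcr11: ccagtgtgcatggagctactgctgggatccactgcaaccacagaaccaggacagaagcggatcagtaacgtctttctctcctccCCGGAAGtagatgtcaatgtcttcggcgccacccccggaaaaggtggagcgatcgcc
Atp5j: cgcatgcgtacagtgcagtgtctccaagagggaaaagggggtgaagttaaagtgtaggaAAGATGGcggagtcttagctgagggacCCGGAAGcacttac
Cox6a1: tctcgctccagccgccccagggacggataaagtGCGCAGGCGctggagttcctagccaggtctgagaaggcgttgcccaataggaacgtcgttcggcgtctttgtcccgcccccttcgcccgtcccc
Cox5a: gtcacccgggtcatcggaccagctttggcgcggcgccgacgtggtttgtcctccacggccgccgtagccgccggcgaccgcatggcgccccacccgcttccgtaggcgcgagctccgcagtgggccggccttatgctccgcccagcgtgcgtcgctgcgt
Cox7a2l: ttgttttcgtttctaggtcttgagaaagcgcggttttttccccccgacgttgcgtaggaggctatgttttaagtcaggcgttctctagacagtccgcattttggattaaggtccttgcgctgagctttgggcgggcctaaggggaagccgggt

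In Uqcr11 the capitals mark an ETS core, and an NRF1 match begins at position -5, past the printed end. In Atp5j they mark a YY1 core and then an ETS core, at positions -88 and -61 from the start site of the second window. The printed stretch of that window lies inside the gene span given above. The first Atp5j window, whose start site is the 5′ end of that span, held no match. In Cox6a1 the capitals mark an NRF1 core at -117. An ETS match lies at -16 past the printed end, and further NRF1 letters lie before the printed start. Among genes with a window, 17 rose, of which 7 held the NRF1, 6 the ETS and 4 the YY1 core. The 3 that fell were Cox7a2l, Uqcrfs1 and Atp5sl, and only Atp5sl held a match, to YY1. With 3 such genes these counts allow no comparison. Atp5j shares its promoter region with Gabpa, a GABP subunit on the other strand, which was at 12.9 to 14.4 FPKM in Initial and 13.8 to 14.7 in Induced libraries.

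Initial library C and transcript length moved with the calls. Initial C was the highest Initial library for 32 of the 37 tested nuclear genes (86.5%), beside 39.2% of all nuclear genes tested, and its level over the mean of A and B had a median log2 of 0.30 here and 0.02 over all genes. Most of these transcripts are short, and across the 37 genes that excess of C was higher in the shorter ones (Spearman's rho -0.62, as a description over genes that share libraries). Over all 11237 nuclear genes with a length the same rho was -0.26. Initial C also had the lowest macrophage marker sum of the Initial libraries, 390 FPKM beside 680 in A and 604 in B, and its part in these values was not tested. The log2 fold change of Induced over Initial also ran lower with length (rho -0.34), but over all nuclear genes rho was -0.05. That small rho covers a trend that was not steady. The median over all nuclear genes was -0.48 up to 500 bases, 0.12 to 0.13 from 500 to 1500, 0.03 up to 3000 and -0.06 beyond. The genes here had medians of 0.42 up to 500 bases, and of 0.40 both up to 700 and up to 1000. Their medians were -0.00 up to 1500 bases and -0.06 up to 3000. Of the 28 nuclear genes with a median coding transcript of up to 1000 bases, 19 rose and 0 fell, and of the 9 longer ones 2 rose and 4 fell. Shares of all genes called at these lengths were not counted. The length is a median over annotated coding transcripts, which need not be those expressed. It is 533 bases for Uqcrc1, 2675.5 for Atp5g1 and 1001, just past the cut, for Cox7b. The length correction used the same lengths, so both are rough. Without Initial C, 26 of the 43 genes rose and 6 fell, and Cox5b, Cox8a, Atp5h and Atp5k then passed.

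**Figure D5:**
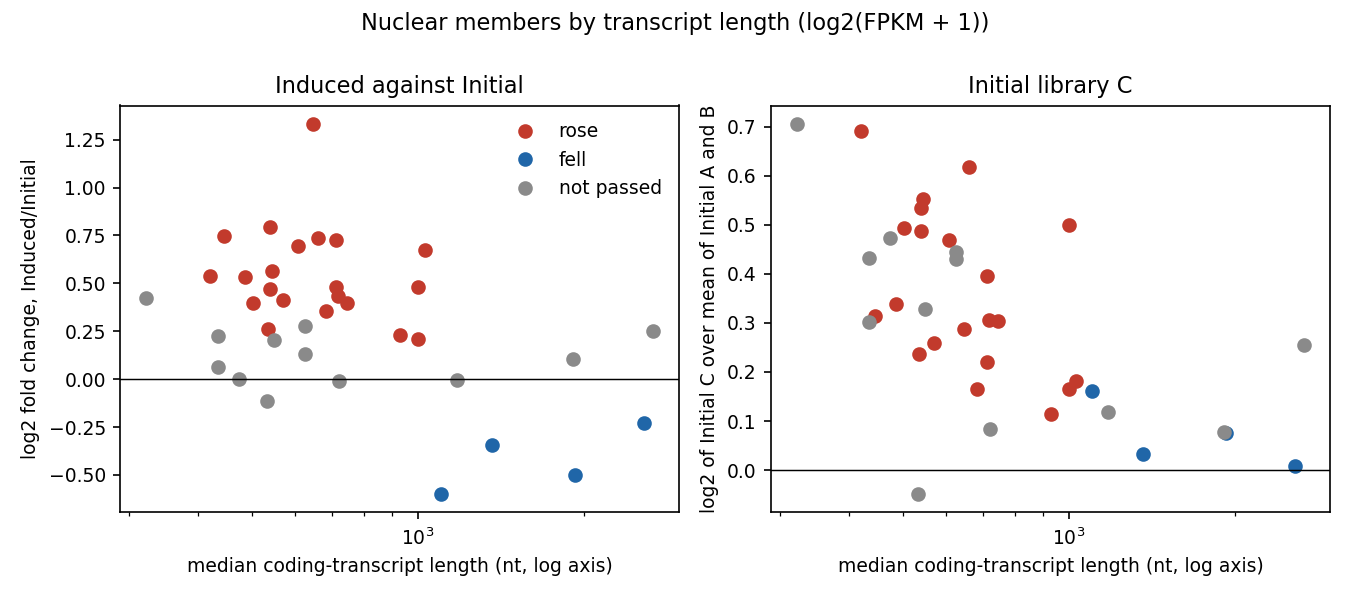
For the 37 tested nuclear genes, log2 fold change of Induced over Initial (left) and log2 of Initial C over the mean of Initial A and B (right), both on the FPKM + 1 scale, against median coding transcript length on a log axis, coloured by call. All 4 genes that fell have a median length over 1000 bases, and Initial C lies above the mean of A and B in nearly every short gene.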

How the data were processed

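Messenger RNA of 3 Initial and 3 Induced libraries, each pair from 1 mouse, was measured. The authors deposited 1 table of FPKM values per library, with identifier, name and locus of each gene per the file headers. Per the labels' protocols a VAHTS mRNA-seq kit was used, reads came from an Illumina instrument, and Cuffdiff gave the FPKM. The submitters' processing notes name CASAVA, HISAT2 2.0.5, Cuffdiff 1.3.0 and 2.2.1, and the build mm9. Gene identifiers matched GENCODE vM21 (GRCm38) for 26669 of the 26771 genes, and the coordinates of genes given in the text are from that annotation; 42 of the 46 genes lie within their deposited locus. In 5 the deposited locus was more than 10 times the gene's span. The sources used here do not say how strand was handled or whether libraries were normalized together. No fragment counts were used, so depth was only estimated from the spacing of low FPKM values in genes with 1 transcript; 44.4% to 47.3% of these lay within 0.15 of a whole fragment (30% by chance), so the estimate is rough.

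The tables were joined by gene identifier. Genes at 1 FPKM or more in at least 3 libraries were fitted with limma 3.58.1 (R 4.3.3) on log2(FPKM + 1), with trended and robust variance, 2-sided, with Benjamini-Hochberg adjustment over all genes tested; the pseudocount of 1 shrinks the fold changes of low genes. The procedure was tested on simulated data. Sums and ratios are given per library without a test. Values are listed by mouse, as the labels name the same mouse in both groups, but the main fit did not use the pairing. The mouse entered only as the replicate block among the alternatives. Deviations from the group means correlated at 0.04, 0.03 and 0.13 within mice A, B and C, and at -0.13 to 0.10 between mice. Copies of mitochondrial genes were found with blastn 2.17.0, with at least 99% identity over at least 20% of the gene. Genes with values in each library were every mitochondrial gene, the 3 largest rises and falls of each complex, the nuclear gene with the highest mean FPKM in each, and the isoform families; from the 5 lists, the 2 largest rises and falls. A few others are named with their values. The members and lists were chosen with earlier results of these data known. Alternatives changed the pseudocount, filter, scaling, variance model, block and libraries used; a length correction and summing of nuclear copies were added after the data were seen. 3 genes, Cox4i2, Cox6a2 and Cox7a1, did not pass the filter.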

Additional observations from a re-analysis of the deposited data

How the results depend on the processing

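Counts of called genes stayed within 1.5 times under most settings. Leaving out 1 library at a time gave 15 to 26 risen and 4 to 6 fallen genes, 1 to 2 fallen mitochondrial genes, and a log2 mitochondrial to nuclear ratio of -0.2108 to -0.1391, against -0.1844 in full. The mitochondrial sum change of 0.0643 ran from 0.037 without Induced C to 0.1107 without Initial C, and was 0.0454 and 0.0378 without Initial A and B. With nuclear copies added it was 0.006, and the ratio -0.2419, both with the partial copy of mt-Co1 weighted too heavily. With scaling to the CD3 chains and Trdc, which moved the median of all genes from 0.03 to 0.19, 30 genes rose, 26 of them nuclear and 4 mitochondrial, and 3 fell, 2 of them nuclear and 1 mitochondrial; the log2 change of the summed FPKM was then 0.42 for nuclear genes (0.24 in full) and 0.24 for mitochondrial genes (0.06 in full). Uqcrc1 then turned to 0.0563, without passing. Quantile normalization gave 2 risen and 1 fallen mitochondrial gene and a mitochondrial sum change of 0.14. With medians of log2(FPKM + 1) in place of sums the ratio was -0.25. Removing the length trend left 1 fallen mitochondrial gene and turned mt-Cytb to -0.0576, mt-Co3 to -0.0222 and mt-Atp8 to 0.0458, none of which then passed. It also took the calls of Atp5c1 and Atp5d, and Uqcr10, Cox8a and Atp5k passed as risen and Uqcrc2 as fallen. The replicate block gave 25 risen and 6 fallen genes, adding Cox8a, Atp5g1 and Atp5h, and changed no other call of the 43. No called gene was called in the opposite direction under another setting. With no filter, 5 calls were lost: Uqcrb, Uqcrq, Atp5d, Atp5e and Atp5j2. The ordinary moderated test lost Uqcrb and Atp5d. The cause of these shifts was not tested. FPKM carry no fragment counts, and 3 libraries a group limit the precision.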
